A study of Mus musculus with 20 samples.

Results

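*Fgf21* and 9 genes tied to the integrated stress response (*Gdf15*, *Ddit3*, *Atf3*, *Atf4*, *Atf5*, *Trib3*, *Asns*, *Chac1* and *Sesn2*) were followed by RNA sequencing across 20 mouse livers. The genes were taken by symbol, 10 of the 48440 genes in the count table, and each symbol named 1 row. *Fgf21* was selected on its measured level, which was higher with corticosterone (CORT) than with vehicle under the isotype antibody, and the other genes were added to it from the pathway. The livers came from female wild-type C57BL/6 mice (named C57BL/6J in the study), aged 8 weeks at the start, in 4 groups of 5. All mice drank CORT or its vehicle and were injected into the peritoneum with a monoclonal antibody, either one that neutralizes acyl-CoA-binding protein, also called diazepam-binding inhibitor (αACBP), or an IgG2a isotype control. The control group is named Isotype + Vehicle, the groups given 1 agent Isotype + CORT or αACBP + Vehicle, and the group given both αACBP + CORT; the livers were frozen at the end of week 5. CORT in drinking water is a mouse model of Cushing's syndrome, the disease of glucocorticoid excess, and the antibody arm asks what neutralizing ACBP/DBI changes in it.

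The integrated stress response starts when one of several kinases phosphorylates the translation factor eIF2α. Most protein synthesis then slows, while the mRNA of the transcription factor ATF4 is translated more, and ATF4 with its partners switches on genes for amino acid supply, redox balance and, under lasting stress, cell death. Liver cells also secrete the hormones FGF21 and GDF15 under such stress, and the liver makes *Fgf21* during fasting under control of the nuclear receptor PPARα. Because ATF4 and ATF5 are regulated in large part by translation, the amounts of their mRNAs are not a measure of their proteins.

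The C/EBP-ATF response element is the DNA motif bound by ATF4 with a C/EBP partner, and its core is shown here because it is a sequence that some of these promoters share. The core was searched as TGATGNAA on both strands in the 250 bases before each RefSeq transcription start, and 3.4% of 32544 mouse promoters held it. It was found in 4 of the 12 promoters listed for the 10 genes, those of *Fgf21*, *Atf3*, *Chac1* and *Asns*. The 30 bases around each match are printed 5′ to 3′ on the strand of the gene, with the core in capitals.
Fgf21: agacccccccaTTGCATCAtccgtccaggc
Atf3: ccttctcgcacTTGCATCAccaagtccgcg
Chac1: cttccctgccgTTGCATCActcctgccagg
Asns: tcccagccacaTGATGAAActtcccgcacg
In GRCm39 these lie at chr7:45265035-45265064 (minus strand), chr1:190915622-190915651 (minus strand), chr2:119181519-119181548 (plus strand) and chr6:7693214-7693243 (minus strand). Counted back from the start, the core began 139 bases before it in *Fgf21*, 110 in *Atf3*, 193 in *Chac1* and 23 in *Asns*. In *Fgf21*, *Atf3* and *Chac1* the match was the same 8 letters, TTGCATCA, in the reverse orientation. The whole *Fgf21* window, chr7:45264915-45265164 on the minus strand, shows the core in its setting.
Fgf21 promoter: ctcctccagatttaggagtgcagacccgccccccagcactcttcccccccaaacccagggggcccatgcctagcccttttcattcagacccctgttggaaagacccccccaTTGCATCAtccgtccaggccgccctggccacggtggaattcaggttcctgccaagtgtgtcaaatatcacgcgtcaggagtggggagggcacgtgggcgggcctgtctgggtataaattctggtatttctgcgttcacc
These letters come from RefSeq promoters of GRCm38.p6, each placed in GRCm39 by an exact and unique match. The cAMP response element TGACGTCA, present in 1.55% of promoters, was in none of the 12. The hexamer TGTTCT bound by the glucocorticoid receptor (16% of promoters) matched only in *Asns*, 141 bases before the start, and the nuclear receptor hexamer AGGTCA (14%) only in *Gdf15*, 55 bases before it. A match is a run of letters, and binding was not measured.

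Per liver, 14934926 to 20299999 read pairs were counted on genes. Levels are given as CPM, read counts divided by the TMM-scaled library size. A count of 3, taken as the limit of detection, stood for 0.145 to 0.205 CPM, and this limit covers counting error only. Of the 48440 genes, 16071 passed the filter on low counts, and so did 9 of the 10 genes, all but *Asns*. The liver αACBP + Vehicle replicate 5 stood apart, with a TMM factor of 1.292, 14% of its counts in its 20 most abundant genes and 14613 genes detected, the lowest number of all. The larger shifts among the 10 genes without it are given beside their values. The 7 hepatocyte markers found in the table were detected in all groups, with summed medians between 84060 and 116700 CPM. The lowest sum of a single liver, 38120 CPM, was in αACBP + Vehicle. Between the vehicle groups 5 of the 7 were lower with αACBP (median log2 difference -0.436, beside -0.019 over all genes), and none was called. The part of this shift in other differences between the vehicle groups was not tested. Fewer cells of a type and less RNA per cell cannot be told apart in whole liver.

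Compared per length of annotated exon, the genes spanned a wide range. The length was that of all annotated exon bases of a gene, 1362 for *Fgf21*, 5579 for *Ddit3* and 11709 for *Asns*. A single transcript can be shorter than this, so the order of the genes may depend in part on the length used. Averaged over the 20 livers, *Atf5* was the most abundant at 466 TPM, a count per exon length scaled to a fixed total, and was followed by *Atf4* at 247 TPM. *Gdf15* reached 52.2 TPM, *Ddit3* 18, *Fgf21* 16.6, *Trib3* 11.4 and *Sesn2* 10.3 TPM. *Atf3* at 6.75 TPM, *Chac1* at 2.83 and *Asns* at 0.0721 TPM were the least abundant. The *Fgf21* mean was set by few livers, with single values from 0 to 135 TPM, so its place beside *Ddit3* and *Trib3* was within its spread.

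**Figure D1:**
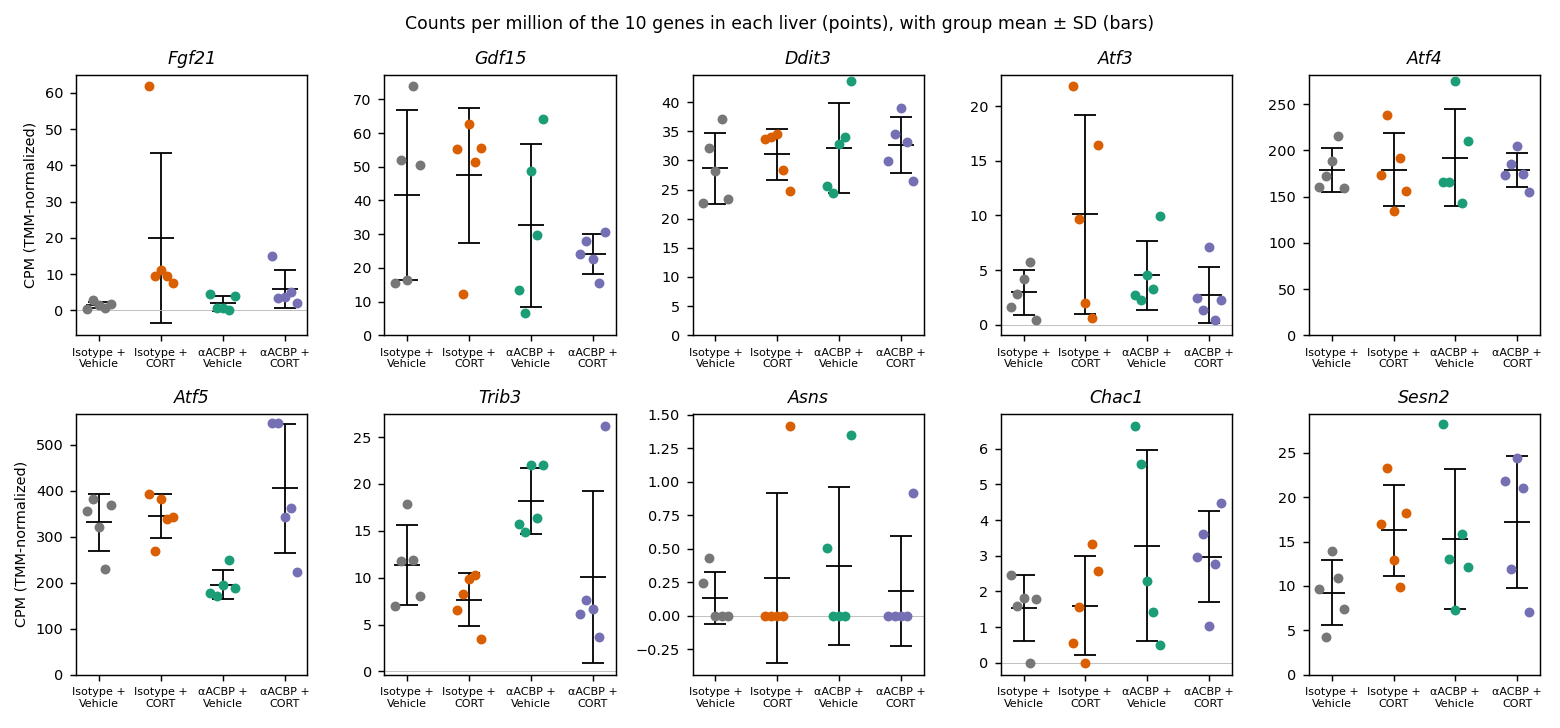
Each panel shows 1 gene, with CPM (linear axis) for the 4 groups of 5 livers; points are livers, the long bar is the group mean and the short bars mark 1 SD. For *Fgf21* the 5 Isotype + CORT livers lie between 7.67 and 61.8 CPM, above all Isotype + Vehicle livers, and for *Atf5* the αACBP + Vehicle livers lie between 170 and 249 CPM.

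*Fgf21* encodes a liver hormone that acts on fat and brain through FGF receptors and the co-receptor β-klotho (chr7:45263301-45266963, GRCm39, minus strand). In Isotype + Vehicle its level was 0.482, 2.75, 1.47, 0.751 and 1.80 CPM (1.45 ± 0.901, SD, n = 5). In Isotype + CORT it was 61.8, 9.41, 11.1, 9.45 and 7.67 CPM (19.9 ± 23.5, SD, n = 5). These groups did not overlap, and the fitted log2 difference was 3.77 (SE 0.95); this is the comparison that chose the gene, so it is given without a test. Replicate 1 stood far above the other 4 CORT livers, and without it the log2 difference was 2.68. *Fut1* on the opposite strand overlaps 18% of the *Fgf21* exon bases, and its group means were 0.211 to 0.616 CPM.

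With the antibody, αACBP + Vehicle livers held 4.52, 0.643, 0.543, 0 and 3.91 CPM of *Fgf21* (1.92 ± 2.12, SD, n = 5). αACBP + CORT livers held 15.05, 3.54, 3.73, 5.15 and 2.16 CPM (5.93 ± 5.21, SD, n = 5). These ranges overlapped, with 2 of 5 αACBP + CORT livers above all 5 αACBP + Vehicle livers. In this comparison, which shares no liver with the one that chose the gene, *Fgf21* did not pass the test (log2 difference 1.61, SE 0.88, 95% interval -0.25 to 3.46, adjusted p = 0.474, edgeR). Without αACBP + CORT replicate 1 the log2 difference was 0.91, and without αACBP + Vehicle replicate 5 it was 2.04.

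Among CORT-treated mice, 4 of 5 αACBP livers had less *Fgf21* than any isotype liver. The difference did not pass the test (log2 -1.75, SE 0.86, 95% interval -3.56 to 0.06, adjusted p = 0.423), and it reuses the Isotype + CORT livers in which the gene was chosen. It also rested on 1 liver of each group: without Isotype + CORT replicate 1 it was -0.67, and without αACBP + CORT replicate 1 it was -2.44. Between the vehicle groups the log2 difference was 0.41 (SE 0.90, adjusted p = 0.869) and -0.03 without αACBP + Vehicle replicate 5. Of the 5 αACBP + CORT livers, 4 were above every Isotype + Vehicle liver (log2 difference 2.02, SE 0.90, adjusted p = 0.595), and without αACBP + CORT replicate 1 the difference was 1.32. Both comparisons reuse the Isotype + Vehicle livers in which the gene was chosen. The interaction term, the change of the CORT difference with the antibody, was -2.16 (SE 1.24) for *Fgf21* and is given without a test for the same reason. It was -1.07 without Isotype + CORT replicate 1 and 0.76 with voom.

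*Gdf15* encodes a stress hormone that lowers food intake through the hindbrain receptor GFRAL (chr8:71082038-71091537, minus strand). Its level ran from 15.4 to 74.0 CPM in Isotype + Vehicle (41.7 ± 25.3, SD, n = 5) and from 6.53 to 64.2 CPM in αACBP + Vehicle (32.6 ± 24.1, SD, n = 5). Isotype + CORT livers held 55.3, 12.2, 62.6, 51.6 and 55.6 CPM (47.4 ± 20.1, SD, n = 5), with replicate 2 far below the rest. αACBP + CORT livers held 24.0, 28.0, 22.6, 15.4 and 30.7 CPM (24.2 ± 5.83, SD, n = 5). They lay below 4 of the 5 Isotype + CORT livers and above the fifth. The log2 difference of αACBP to isotype under CORT was -0.97 (SE 0.58, adjusted p = 0.547) and -1.22 without Isotype + CORT replicate 2, which is not past the test. With CORT it differed by 0.19 (SE 0.57) under isotype, given as a description, and by -0.43 (SE 0.57, adjusted p = 0.828) under αACBP, or -0.03 without αACBP + Vehicle replicate 5. Between the vehicle groups it was -0.35 (SE 0.57, adjusted p = 0.815), and -0.77 without that liver.

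The transcription factors *Atf4* and *Ddit3*, the core of the response, differed little between groups. *Atf4* (chr15:80139372-80141745, plus strand) averaged 178.9 ± 23.5 CPM in Isotype + Vehicle and 178.9 ± 39.5 in Isotype + CORT. It averaged 192 ± 52.5 CPM in αACBP + Vehicle and 178.5 ± 18.3 in αACBP + CORT (SD, n = 5 each). The 95% intervals of the tested log2 differences lay between -0.47 and 0.46. *Ddit3*, which encodes the cell-death factor CHOP (chr10:127124268-127132163, plus strand), had group means of 28.6 ± 6.07, 31.1 ± 4.36, 32.1 ± 7.72 and 32.6 ± 4.75 CPM in the same order. Its highest value, 43.7 CPM, was in αACBP + Vehicle replicate 5, without which the log2 difference between the vehicle groups was 0.02 instead of 0.17. Of the *Ddit3* exon bases 64.1% also belong to *Mars1* on the opposite strand, whose means lay between 47.1 and 68.0 CPM; the strand setting of the counting is not given in the sources used here, so reads of the 2 genes may be mixed.

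*Atf5*, which encodes a factor of the mitochondrial stress response related to ATF4 (chr7:44461680-44466082, minus strand), was the only gene of the set called in a tested comparison. αACBP + Vehicle livers held 177, 170, 194, 249 and 188 CPM (196 ± 31.5, SD, n = 5). αACBP + CORT livers held 548, 547, 344, 363 and 223 CPM (405 ± 141, SD, n = 5). In the CORT group 4 of 5 livers were above all αACBP + Vehicle livers. *Atf5* rose with CORT under αACBP by a log2 fold change of 1.05 (SE 0.20, 95% interval 0.63 to 1.47, adjusted p = 0.0184, edgeR). It was the only 1 of the 9 genes called there, where 0.212% of all genes tested were called. The median log2 difference of the 9 genes was -0.105, beside 0.007 over all genes, and no gene was without overlap (2.74% of all genes were).

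The *Atf5* call depended on single livers, with an adjusted p of 0.0544 to 0.0954 without αACBP + Vehicle replicate 1, 3 or 5 or αACBP + CORT replicate 1 or 2, and 0.000741 without αACBP + CORT replicate 5. It was also lost with library sizes without the 20 most abundant genes (log2 0.94) and in a fit of only the 2 groups (adjusted p = 0.0657). The isotype groups held 357, 382, 321, 229 and 369 CPM with vehicle (332 ± 61.8, SD, n = 5). They held 394, 270, 381, 338 and 342 CPM with CORT (345 ± 48.4, SD, n = 5). Here the groups overlapped almost wholly and the log2 difference was 0.06 (SE 0.20). Replicates 1 and 2 of αACBP + CORT, at 548 and 547 CPM, were above every liver of the other groups. The log2 difference of αACBP to isotype under CORT was 0.23, and that of αACBP + CORT to Isotype + Vehicle was 0.29, neither of them called. αACBP + Vehicle had the lowest mean, and 4 of its 5 livers were below every Isotype + Vehicle liver. This antibody difference without CORT had a log2 value of -0.76 (SE 0.20, adjusted p = 0.0284). It was past the p limit but under the required log2 change of 1; without the fold limit 5.14% of all genes passed. It was -0.75 without αACBP + Vehicle replicate 5 (adjusted p = 0.0607). The interaction term was 0.99 (SE 0.29), given without a test because it holds the comparison that chose *Fgf21*. The exons of *Nup62* and *Il4i1* on the opposite strand each overlap 8.36% of *Atf5*, and their group means were at most 16.5 and 5.24 CPM.

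Of 12 clock genes, 3 were called between the same vehicle groups, where 1.3% of all genes were: *Dbp*, a clock output factor, rose with αACBP from 15.8 ± 7.53 to 315 ± 182 CPM (log2 4.31, SE 1.06, adjusted p = 0.0287), *Tef*, a related factor, rose by 2.11 (adjusted p = 0.00859) and *Arntl*, a core clock activator, fell by 2.11 (adjusted p = 0.0108). Of the 12, 8 were higher and 4 lower with αACBP, so their sum joins genes that moved in opposite directions. The summed clock level was 962 to 1919 CPM in αACBP + Vehicle and 297 to 698 CPM in Isotype + Vehicle. It was 277 to 1081 CPM in αACBP + CORT and 506 to 763 CPM in Isotype + CORT. No clock gene was at 0 in every liver of a group. The sample details used here hold the week of killing but no time of day. The part of the clock genes in the *Atf5* difference was not tested.

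*Atf3* encodes a factor made early after many kinds of stress (chr1:190902493-190950241, minus strand), and it varied widely within groups. Isotype + Vehicle livers held 1.63, 2.82, 4.16, 5.76 and 0.420 CPM (2.96 ± 2.09, SD, n = 5). Isotype + CORT livers held 21.8, 9.71, 1.98, 0.652 and 16.4 CPM (10.1 ± 9.12, SD, n = 5). Here 3 CORT livers were above all vehicle livers and the other 2 were not, with a log2 difference of 1.77 (SE 0.81), or 1.27 without Isotype + CORT replicate 1. αACBP + Vehicle livers held 2.68, 2.25, 4.53, 3.25 and 9.99 CPM (4.54 ± 3.17, SD, n = 5), the highest being replicate 5. αACBP + CORT livers held 2.42, 1.35, 7.12, 0.414 and 2.27 CPM (2.72 ± 2.59, SD, n = 5), and all 5 were below the 3 highest Isotype + CORT livers. This αACBP difference under CORT had a log2 value of -1.89 (SE 0.81, 95% interval -3.58 to -0.20) and did not pass after adjustment (adjusted p = 0.33, edgeR). It was -2.64 without αACBP + CORT replicate 3 and -1.39 without Isotype + CORT replicate 1. With CORT under αACBP it was -0.74 (SE 0.80, adjusted p = 0.775), but -0.22 without αACBP + Vehicle replicate 5 and -1.49 without αACBP + CORT replicate 3. Between the vehicle groups it was 0.62 (SE 0.79, adjusted p = 0.75), and 0.10 without αACBP + Vehicle replicate 5.

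Among the effectors, *Trib3* encodes a pseudokinase that restrains ATF4 and insulin signalling (chr2:152179337-152191958, minus strand). αACBP + Vehicle livers held 15.7, 14.9, 22.02, 16.4 and 22.01 CPM (18.2 ± 3.53, SD, n = 5), and αACBP + CORT livers 6.11, 7.66, 6.66, 3.73 and 26.2 CPM (10.1 ± 9.14, SD, n = 5). Of the latter, 4 of 5 were below all αACBP + Vehicle livers and replicate 5 was above them all. The log2 difference was -0.85 (SE 0.39, adjusted p = 0.358), and without that replicate it was -1.59 and was called. Isotype + Vehicle livers averaged 11.3 ± 4.26 CPM and Isotype + CORT livers 7.67 ± 2.79 CPM (SD, n = 5 each), a log2 difference of -0.56 (SE 0.39). *Trib3* was thus lower with CORT under both antibodies in the group means, and it did not pass where it was tested.

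*Sesn2* encodes a leucine sensor that inhibits mTORC1 (chr4:132219335-132237815, minus strand). Isotype + Vehicle livers held 9.70, 4.22, 13.96, 10.9 and 7.43 CPM (9.24 ± 3.66, SD, n = 5), the lowest mean. Isotype + CORT livers held 16.96, 23.3, 12.9, 9.91 and 18.2 CPM (16.3 ± 5.15, SD, n = 5), overlapping them. αACBP + Vehicle averaged 15.3 ± 7.85 CPM and αACBP + CORT 17.2 ± 7.44 CPM (SD, n = 5 each). Against Isotype + Vehicle the log2 difference was 0.81 (SE 0.35) for CORT alone, 0.72 (SE 0.35, adjusted p = 0.245) for αACBP alone and 0.90 (SE 0.36, adjusted p = 0.461) for both.

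*Chac1* encodes an enzyme that degrades glutathione (chr2:119180757-119184866, plus strand) and was low in all groups. It averaged 1.54 ± 0.920 and 1.60 ± 1.38 CPM in the isotype groups with vehicle and CORT, and 3.28 ± 2.68 and 2.97 ± 1.27 CPM in the αACBP groups (SD, n = 5 each). The αACBP difference had a log2 value of 1.09 (SE 0.87, adjusted p = 0.54) under vehicle and 0.89 (SE 0.87, adjusted p = 0.785) under CORT, both within wide error. Without αACBP + Vehicle replicate 5 the former was 1.36, and the CORT difference under αACBP went from -0.14 (SE 0.86, adjusted p = 0.974) to -0.43. *Asns*, the asparagine synthetase gene (chr6:7671667-7728461, minus strand), was at 0 counts in 3 of 5 livers of each vehicle group and 4 of 5 of each CORT group. Its highest level was 1.42 CPM (22 counts), in Isotype + CORT replicate 5, and no fold is given. With the filter removed its adjusted p lay between 0.806 and 1 in the tested comparisons.

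**Figure D2:**
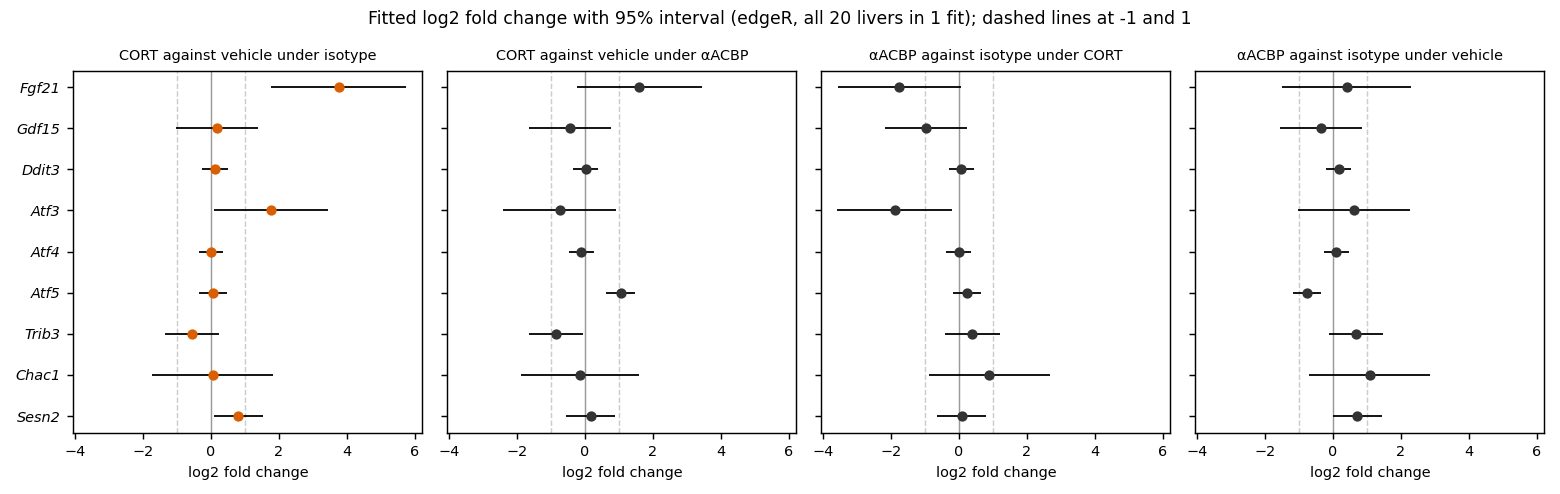
Each panel shows 1 comparison; points are fitted log2 fold changes of the 9 genes tested, bars are 95% intervals of the edgeR model of all 20 livers, dashed lines mark -1 and 1. In the first panel, which chose *Fgf21* and is a description, *Fgf21* stands at 3.77, and in the second *Atf5* stands at 1.05 with an interval of 0.63 to 1.47.

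Counted together, the genes did not move as 1 block. In the comparison that chose *Fgf21* (CORT under isotype), 1 of 9 genes, *Fgf21* itself, was past the limits used for calls (1.94% of all genes) and without overlap (5.04%), which its choice fixed, and nothing is read from it. The median log2 difference there was 0.118, against 0.002 over all genes. For αACBP against isotype under CORT, 0 of 9 were called by edgeR or DESeq2 (0.597% of all genes), 0 were without overlap (3.22%), and 1, *Atf3*, passed at unadjusted p (3.24% of all genes). The signs were split, 5 higher and 4 lower. For αACBP against isotype under vehicle, 0 of 9 were called by either tool (1.3% of all genes), 0 were without overlap (7.13%) and 0 passed at unadjusted p with the fold limit (3.34%). In that comparison 7 of 9 were higher, with a median of 0.411 beside -0.019 over all genes. For αACBP + CORT against Isotype + Vehicle, 0 of 9 were called (0.0684% of all genes; 0 with DESeq2), 0 were without overlap (3.31%) and 1, *Fgf21*, passed at unadjusted p (1.39%). The last rests in part on the Isotype + Vehicle livers in which *Fgf21* was chosen as low. The comparisons share groups, so their values are not independent of each other.

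**Figure D3:**
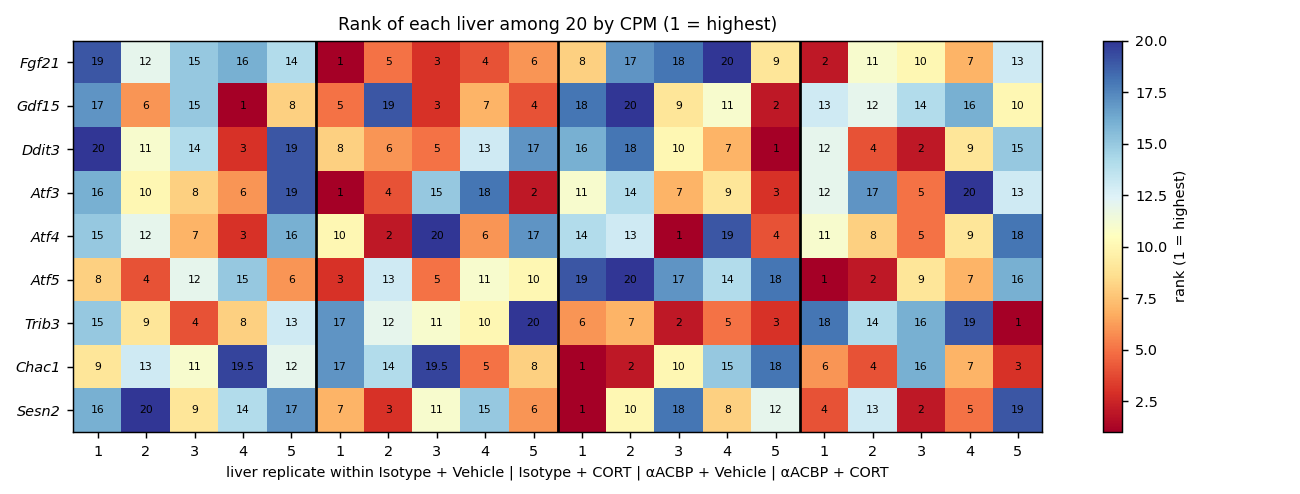
Each row is 1 of the 9 genes and each column 1 liver; the number is the rank of that liver among the 20 by CPM, 1 being the highest, and the color scale follows it. Isotype + CORT replicate 1 ranks 1 for *Fgf21* and *Atf3* but 17 for *Trib3* and *Chac1*, and no liver is high for all genes.

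Some genes had their highest value in the same liver. Isotype + CORT replicate 1 had the most *Fgf21* and *Atf3*, Isotype + Vehicle replicate 4 the most *Gdf15*, αACBP + Vehicle replicate 1 the most *Chac1* and *Sesn2*, and αACBP + Vehicle replicate 5 the most *Ddit3*. The latter liver, which stood apart in its scaling, was among the 3 highest for *Gdf15*, *Ddit3*, *Atf3* and *Trib3*. Over the 20 livers the Pearson correlation of log2 CPM with *Fgf21* was 0.45 for *Atf5*, 0.34 for *Sesn2*, 0.22 for *Atf3*, 0.19 for *Gdf15*, 0.15 for *Ddit3*, 0.00 for *Atf4*, -0.11 for *Chac1* and -0.47 for *Trib3*. Among the genes of the whole table with the pattern most like *Fgf21* were *Sp3* (r = 0.814), *Bnip3* (0.801), *Rhoq* (0.789) and *Zfand6* (0.784), with Spearman rho of 0.683, 0.88, 0.792 and 0.779. Without the 2 livers farthest from the *Fgf21* median, r of these 4 lay between 0.675 and 0.779. These values are a description, since the livers share group differences and the genes were taken from the highest of 16071. *Bnip3*, a mitophagy receptor gene, averaged 149.9 ± 19.9 CPM in Isotype + Vehicle, 344 ± 132 in Isotype + CORT, 153.5 ± 17.02 in αACBP + Vehicle and 193.5 ± 26.6 in αACBP + CORT (SD, n = 5 each). When group means were taken out first, the highest were *Tmc7* (r = 0.813), *Nasp* (0.80), *Pkdcc* (0.781), *Gm26967* (0.78) and *Ppp1r15a* (0.78). *Ppp1r15a* encodes the GADD34 subunit that returns eIF2α to its unphosphorylated state. Without the 2 farthest livers, both of αACBP + Vehicle, its r was 0.569.

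The genes upstream and around these were described by lists. Over all genes, 1.3% were called with αACBP under vehicle and 0.0684% for αACBP + CORT against Isotype + Vehicle. Of 13 eIF2α kinases and regulators, 1 was called in a tested comparison: *Ppp1r15a* rose with αACBP under vehicle from 13.5 ± 2.79 to 33.3 ± 15.9 CPM (SD, n = 5 each; log2 1.30, SE 0.27, adjusted p = 0.0086), while 1 of its αACBP values, 9.91 CPM, was below every control. None of 12 aminoacyl-tRNA synthetase genes was called in any comparison, and all 12 were lower with αACBP under CORT, with a median of -0.242 beside 0.011 over all genes. Of 14 further ATF4 and CHOP targets, *Cebpb*, which encodes a partner of ATF4, rose with αACBP under vehicle (log2 1.04, adjusted p = 0.0324) and *Ddit4*, an mTORC1 inhibitor gene, fell by 1.25 on the log2 scale (adjusted p = 0.0317). *Bbc3*, which encodes the cell-death protein PUMA, differed by -1.45 with CORT under isotype, a description. The glycine transporter gene *Slc6a9* was the 1 of 9 amino acid transporters called: it averaged 21.0 ± 2.85 CPM in Isotype + Vehicle and 57.3 ± 21.2 in αACBP + Vehicle (log2 1.45, adjusted p = 0.00215). It was 56.2 ± 12.4 CPM in αACBP + CORT (log2 1.42 against Isotype + Vehicle, adjusted p = 0.00788) and 64.8 ± 19 in Isotype + CORT (log2 1.63, a description).

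Of 10 tested genes for amino acid synthesis and one-carbon metabolism, *Cth*, for cystathionine gamma-lyase, fell with αACBP under vehicle by 1.12 on the log2 scale (adjusted p = 0.0451). In that comparison 1.3% of all genes were called. The ATF6 and XBP1 branch of the unfolded protein response had 12 of 13 genes lower with αACBP under vehicle (median -0.647, beside -0.019 over all genes). Under CORT 12 of 13 were lower too (median -0.545, beside 0.011). *Dnajb9*, a chaperone of the endoplasmic reticulum, was the only 1 called, under vehicle (log2 -1.43, adjusted p = 0.0363, edgeR). There *Pdia4* (adjusted p = 0.015), *Hsp90b1* (0.0194), *Manf* (0.0248) and *Hspa5* (0.042) were past the p limit but under the fold limit. Without the fold limit 5.14% of all genes passed there. Under CORT this held for *Manf* (log2 -0.956, adjusted p = 0.0449). No gene of these lists was called with CORT under αACBP. Of 5 tested receptor genes for FGF21 and GDF15, none was called in any comparison. *Fgfr4*, for a liver FGF receptor, averaged between 76.6 and 113.9 CPM and *Klb*, for β-klotho, between 12.3 and 15.2 CPM.

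PPARα and its targets, listed because *Fgf21* is one of those targets, were higher with CORT in 15 of 16 genes under isotype (median 0.675, with *Cyp4a14* at 2.24, *Cyp4a10* at 2.14 and *Vnn1* at 2.08 on the log2 scale, a description) and in 15 of 16 under αACBP (median 0.691), where none was called. With αACBP under CORT, 15 of 16 were lower (median -0.382, beside 0.011 over all genes). *Cyp4a10*, a fatty acid hydroxylase gene, fell from 1241 ± 417 to 494 ± 179 CPM (log2 -1.33, SE 0.29, adjusted p = 0.023), where 0.597% of all genes were called. Of 7 hepatocyte markers, 6 were lower in this comparison (median -0.158). With CORT, 5 of the 7 were higher under isotype (median 0.12, a description) and 6 under αACBP (median 0.31). Their part in the PPARα list was not tested. Between the vehicle groups *Ehhadh*, of peroxisomal fatty acid oxidation, fell by 1.04 on the log2 scale with αACBP (adjusted p = 0.0114), where 1.3% of all genes were called.

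**Figure D4:**
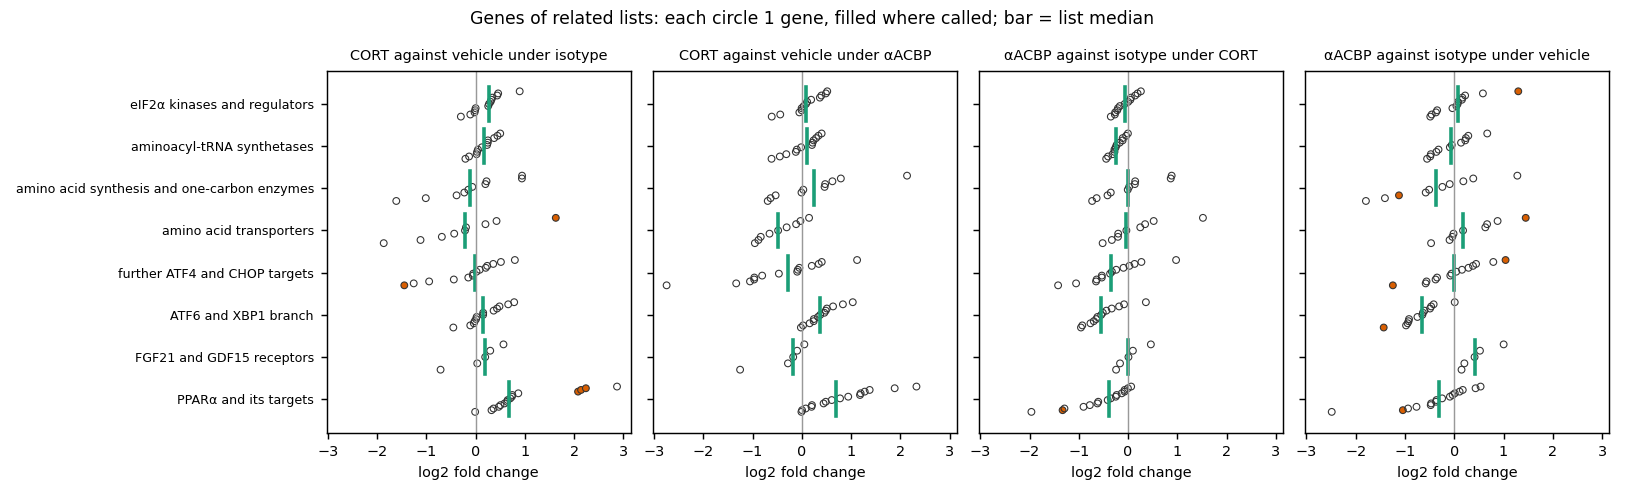
Each row is a gene list and each panel 1 comparison; circles are log2 fold changes of single genes, filled circles passed the adjusted p and the fold limit, and the green bar is the list median. The PPARα list has medians of 0.675 and 0.691 for CORT in the first 2 panels, and the ATF6 and XBP1 branch medians of -0.545 and -0.647 for αACBP in the last 2.

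Markers of immune cells were summed in each liver. The summed level of 8 Kupffer cell and macrophage markers was 122 to 361 CPM in Isotype + CORT, 328 to 637 in Isotype + Vehicle, 453 to 768 in αACBP + Vehicle and 441 to 601 CPM in αACBP + CORT. All 8 were higher with αACBP under CORT, and *Clec4f* (log2 1.42, adjusted p = 0.00275) and *Csf1r* (log2 1.07, adjusted p = 0.0072) were called, 2 of 8 where 0.597% of all genes were. The 8 lymphocyte markers summed to 8.41 to 18.4 CPM in Isotype + CORT and 15.8 to 55.3 in the other groups, and 1 of them, *Ptprc*, a pan-leukocyte gene, rose with αACBP under CORT (log2 1.18, adjusted p = 0.0173). No Kupffer or lymphocyte marker was called between the vehicle groups or with CORT under αACBP. With CORT under isotype, a description, the log2 difference was -1.61 for *Timd4*, -1.32 for *Cd5l*, -1.10 for *Vsig4*, -1.02 for *Csf1r* and -1.53 for *Ptprc*. None of the 8 lymphocyte or 8 Kupffer genes was at 0 in all livers of a group. Their part in the differences of *Fgf21* and *Atf3* was not tested. All 6 stellate and fibroblast markers were lower with αACBP under vehicle (median -0.926, beside -0.019 over all genes). *Lrat*, for retinol storage, fell there by 1.01 on the log2 scale (adjusted p = 0.0332, edgeR), where 1.3% of all genes were called. There *Dcn* (log2 -0.885, adjusted p = 0.0208) and *Col3a1*, a collagen gene (log2 -0.968, adjusted p = 0.0299), were past the p limit but under the fold limit. Without the fold limit 5.14% of all genes passed there. With CORT under isotype *Col3a1* differed by -1.11, a description. Endothelial (6) and cholangiocyte (5) markers held no called gene. The cholangiocyte markers summed to at most 22.4 CPM in any liver. Of them, 4 of 5 were lower with αACBP under vehicle (median -1.272, beside -0.019 over all genes). All 5 were lower for αACBP + CORT against Isotype + Vehicle (median -1.544, beside 0.003). Of the endothelial markers, 5 of 6 were lower with αACBP under vehicle (median -0.298) and with CORT under isotype (median -0.44, a description). Adipocyte markers summed to at most 2.08 CPM in any liver, and pancreatic markers to at most 24.1 CPM.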

How the data were processed

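Liver RNA of 20 mice was sequenced by the authors, and the deposited table holds whole-number counts for each gene in each liver, without normalization. Per the labels' processing notes the reads were aligned with HISAT2 and counted with HTSeq on mm10, while the paper's methods name GRCm39; the table has no coordinates. The paper's methods state union mode with non-unique features included. The annotation and strand setting are not given in the sources used here. Between 36.6% and 40.4% of the table's total per liver was on genes; the 5 summary lines (no feature, ambiguous and the like) were left out. Groups and replicate numbers came from the sample labels. The labels name no batch.

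Genes were tested with edgeR 4.0.16 in R 4.3.3 (quasi-likelihood test, robust, TMM normalization, filterByExpr) in 1 model of the 4 groups without covariates, with Benjamini-Hochberg adjustment over the 16071 genes tested. Calls required an adjusted p of at most 0.05 together with a log2 change of 1 or more in either direction. Correlations used log2 CPM with a prior count of 2. DESeq2 1.42.0 and voom of limma 3.58.1 were alternatives, beside other scalings, filters, thresholds, fits of 2 groups alone, a block for the replicate number, and fits without each liver in turn. All genes of the set were named, with up to 4 called genes of each list in each comparison, the 5 genes most like *Fgf21* on each measure, and genes with overlapping exons; the result of 1 gene taken by this rule is not reported here. The set and the lists were chosen with earlier results of these data known. On counts simulated for CORT against vehicle under αACBP, with 200 of 15436 genes changed, edgeR recovered 84.5% and 3.43% of its calls were false. Each planted change was at least 2 on the log2 scale in either direction, and 79.5% of those at 2 were recovered. Changes as small as that of *Atf5* were not simulated, so recovery near the call limit is not known. Positions and overlaps came from GENCODE M39, in which 91.4% of the identifiers were found. TPM was computed from the length of all exon bases of each gene there, not from that of a single transcript. Any 2 livers of a group differed by at least 12.2 in chi-square per degree of freedom, so none was counted as a copy.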

Additional observations from a re-analysis of the deposited data

Results flagged for a closer look

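In groups of 5 livers, 36 combinations of gene and group were examined for 1 liver far from the other 4, and 4 were found. For normally distributed values chance gives about 1 in 20. The values examined were linear CPM, which need not be normal, so that rate may not apply. *Fgf21* was 61.8 CPM in Isotype + CORT replicate 1, with the other 4 between 7.67 and 11.1 CPM. *Fgf21* was 15 CPM in αACBP + CORT replicate 1, with the others between 2.16 and 5.15 CPM. *Gdf15* was 12.2 CPM in Isotype + CORT replicate 2, with the others between 51.6 and 62.6 CPM. *Trib3* was 26.2 CPM in αACBP + CORT replicate 5, with the others between 3.73 and 7.66 CPM.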

How the results depend on the processing

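With CORT under isotype, 0 of the genes were called with no filter beyond 1 count and 0 with at least 10 counts in every liver (*Fgf21* was then not tested), and 2 at unadjusted p. Without single livers this count was 0 to 1, and *Fgf21*, chosen in this comparison, was not past the limits without each Isotype + Vehicle liver and without Isotype + CORT replicate 1. With CORT under αACBP the count was 0 with library sizes without the 20 most abundant genes (*Atf5* 0.94), 0 with only the 2 groups compared (*Atf5* 1.045, adjusted p = 0.0657), 2 with voom (*Trib3* -1.453) and 0 to 2 without single livers. At unadjusted p it was 1 for αACBP under CORT (*Atf3* -1.891) and 1 for both treatments against neither (*Fgf21* 2.02), and without a fold limit 1 for αACBP under vehicle (*Atf5* -0.761). Apart from the changed thresholds, filters and numbers of livers, the cause was not tested.

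The sign of small log2 differences turned under some settings. For *Fgf21* with αACBP under vehicle it was -0.227 with the replicate block, -2.015 with voom and -0.166 to 0.763 without single livers, and the *Fgf21* interaction was 0.758 with voom. With CORT under αACBP, *Ddit3* was -0.007 with DESeq2 size factors, -0.008 with DESeq2's Wald test, -0.013 with at least 10 counts in every liver, -0.084 with library sizes without the most abundant genes and -0.06 to 0.157 without single livers. There *Chac1* was 0.032 with voom and, without single livers, -0.427 to 0.283, *Atf4* -0.192 to 0.062 and *Sesn2* -0.003 to 0.516. With αACBP under CORT, *Atf4* was 0.004 without the filter, 0.025 with the reduced library sizes, 0.022 with voom, 0.001 with only the 2 groups and -0.089 to 0.128 without single livers. There *Trib3* was -0.331 with voom and -0.346 to 0.605 without single livers, *Sesn2* -0.034 with the replicate block and -0.076 to 0.284, and *Ddit3* -0.004 to 0.138. With αACBP under vehicle *Atf4* was -0.065 to 0.189 without single livers. For both treatments against neither, *Atf4* was 0.05 with voom, and without single livers *Atf4* was -0.057 to 0.072, *Atf3* -0.872 to 0.263 and *Trib3* -0.907 to 0.059. The cause was not tested.

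Same-numbered livers were not treated as pairs. The correlation of their deviations from group means was -0.095 to 0.097, with 0 of 5 pairs over 0.1 in every comparison. At most 3 of 5 livers correlated best with their own number, for CORT under αACBP. Such low correlations cannot show that no pairing existed. With the replicate block the log2 difference of *Fgf21* was 3.157 with CORT under isotype and 1.884 under αACBP and its interaction term -1.273, and the block changed no call. The biological coefficient of variation was 0.481. Counts over all genes, the background here, moved by over 1.5 times under these settings. With CORT under isotype 312 genes were called, and 527 by DESeq2's Wald test. With CORT under αACBP 34 were called, 112 by DESeq2's Wald test and 155 with voom. With αACBP under CORT 96 were called, 211 by the Wald test, 57 with voom and 27 with only the 2 groups. For both treatments against neither 11 were called, 56 by the Wald test, 150 with voom and 62 with only the 2 groups. With library sizes without the 20 most abundant genes the calls for αACBP under vehicle split into 161 higher and 77 lower, beside 110 and 99, those for CORT under αACBP into 19 and 10, beside 27 and 7, and those for both treatments against neither into 6 and 2, beside 6 and 5.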
